A study of Mus musculus with 6 samples.

Results

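Acat1 and Bdh1 encode enzymes at the start and the end of ketone body synthesis. They were taken by gene name from the expression tables, in which they are 2 of 14002 listed genes. The rule for them uses no measured value, but the pair and the gene lists below were picked with earlier results of these data known. Liver RNA came from 3 wild type animals and from 3 that lacked let-7b and let-7c-2 in hepatocytes (LKO, for hepatocyte knockout), with 1 library per mouse. All 6 mice were C57BL/6 with a labelled age of 8 weeks, and all had eaten a 60% high-fat diet for 8 weeks. Whether that age is the one at the start of the diet or at sampling was not settled here. Neither group shows the liver on normal chow. No promoter or Cre line behind the knockout is named in the labels. The tissue is whole liver, so fewer cells of a type and less RNA per cell cannot be told apart.

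Ketone bodies are water-soluble fuels that hepatocyte mitochondria make from the acetyl-CoA released by fatty acid oxidation, mainly in fasting and on fat-rich diets. ACAT1, the mitochondrial acetoacetyl-CoA thiolase, joins acetyl-CoA units into acetoacetyl-CoA, and it also cleaves the last intermediate of isoleucine breakdown. BDH1, bound to the inner mitochondrial membrane, reduces acetoacetate to beta-hydroxybutyrate with NADH. Both reactions are reversible, and in heart, brain and muscle the same enzymes work in the direction of ketone use. The nuclear receptor PPARα is known to drive hepatic ketogenesis, and let-7 microRNAs repress messenger RNAs through short sites in 3′ untranslated regions.

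The mature microRNAs encoded by the 2 knocked-out genes are shown because one of the transcripts carries letters that pair with their seed. How much mature let-7 remained in the LKO livers was not examined here. The mature let-7b-5p (chr15:85707325-85707346, + strand) and let-7c-5p (chr15:85706616-85706637, + strand) are given from RefSeq, build GRCm38.p6, with the seed, bases 2 to 8, in capitals.
let-7b-5p: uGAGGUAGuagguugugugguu
let-7c-5p: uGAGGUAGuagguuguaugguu
Both have the same seed and differ at 1 base, G17A, counted from the 5′ end of let-7b-5p. The longest annotated 3′ untranslated region of Acat1 (transcript Acat1-201, 2023 bases, GENCODE M21 on GRCm38) holds 2 complements of this seed, in capitals below with the bases around them on the transcript strand.
Acat1 site 1: cctgtgcttttCTACCTCActgctgccggt
Acat1 site 2: ggtatttcccaCTACCTCtagtgggaggtg
Site 1 is the 8mer CTACCTCA (chr9:53581986-53581993, − strand), which begins 552 bases into the untranslated region. Site 2 is the 7mer CTACCTC (chr9:53580586-53580592, − strand), which begins at base 1953. The longest 3′ untranslated region of Bdh1 (Bdh1-203, 1807 bases) holds neither of these letters nor the 7mer TACCTCA. Of 10684 tested genes with an annotated 3′ untranslated region, 3.69% hold the 8mer and 17.1% hold at least 1 of these sites. A match describes the letters and was not measured as a bound site.

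Acat1 fell by 47.1% in LKO livers, with a log2 fold change of -0.92. Bdh1 had a log2 fold change of -0.74 and did not pass the test. For both genes every LKO library lay below every wild type library, as in 11.9% of all tested genes. Of the pair, Acat1 holds a let-7 8mer and Bdh1 holds none of the sites, while the LKO values were the lower ones for both. Among the 394 tested genes with this 8mer 1.78% were lowered, Acat1 included, against 1.75% of the 8862 genes with none of the sites. Raised were 6 of the 394 and 155 of the 8862, with median log2 fold changes of 0.04 and -0.01. Any part of the site in the level of Acat1 was not tested.

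The Acat1 gene (ENSMUSG00000032047) lies at chr9:53580522-53610382 on the − strand and overlaps no other annotated gene. Its expression signal, an estimated read count scaled by 1 factor per library, was 506, 608 and 586 in wild type replicates 1, 2 and 3. In LKO replicates 1, 2 and 3 it was 414, 242 and 266. LKO replicate 1 stood nearest to the wild type livers, while the other LKO livers held 42.7% and 46.9% of the wild type mean against its 73.02%. The group means were 567 ± 53.9 in wild type and 307 ± 93.1 in LKO (SD, n = 3 each). The log2 fold change on the log2(signal + 1) scale was -0.92 (SE 0.19, 95% interval -1.34 to -0.49). The adjusted p was 0.0314 in limma with Benjamini-Hochberg adjustment over 11168 genes. By this test 1.69% of all tested genes were lowered and 1.82% were raised. Acat1 ranked 182 of the tested genes from the most negative fold change.

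The call of Acat1 held in 1 of the 6 fits with a library left out, the fit without LKO replicate 1, where the log2 fold change was -1.15 (adjusted p in limma 0.0019). Without wild type replicates 1, 2 and 3 the adjusted p in limma was 0.0585, 0.113 and 0.0796, with log2 fold changes of -0.997, -0.86 and -0.89. Without LKO replicates 2 and 3 it was 0.107 and 0.12, with log2 fold changes of -0.77 and -0.83. The sign cannot turn in these fits because the groups do not overlap. In limma without a mean-variance trend the adjusted p was 0.0856.

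The Bdh1 gene (ENSMUSG00000046598) lies at chr16:31422280-31458901 on the + strand. An annotated antisense gene lies within it at chr16:31427876-31429776, and the strand setting of the counting is not given, so reads of the pair may not be separated. The Bdh1 signal was 392, 406 and 312 in wild type replicates 1, 2 and 3. In LKO replicates 1, 2 and 3 it was 291, 217 and 167. Wild type replicate 3 and LKO replicate 1 were close to each other, and the groups were otherwise well apart. The means were 370 ± 50.5 in wild type and 225 ± 62.4 in LKO (SD, n = 3 each), with a log2 fold change of -0.74 (SE 0.19, 95% interval -1.17 to -0.31) and an adjusted p of 0.0718 in limma. The groups did not overlap with LKO lower in 11.9% of all tested genes, so the order of the Bdh1 values is a common one in these libraries. Without LKO replicate 1 the adjusted p in limma was 0.0128, at a log2 fold change of -0.94. In the other fits with a library left out it ran from 0.0735 to 0.204, and the fold changes ran from -0.86 to -0.54.

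**Figure D1:**
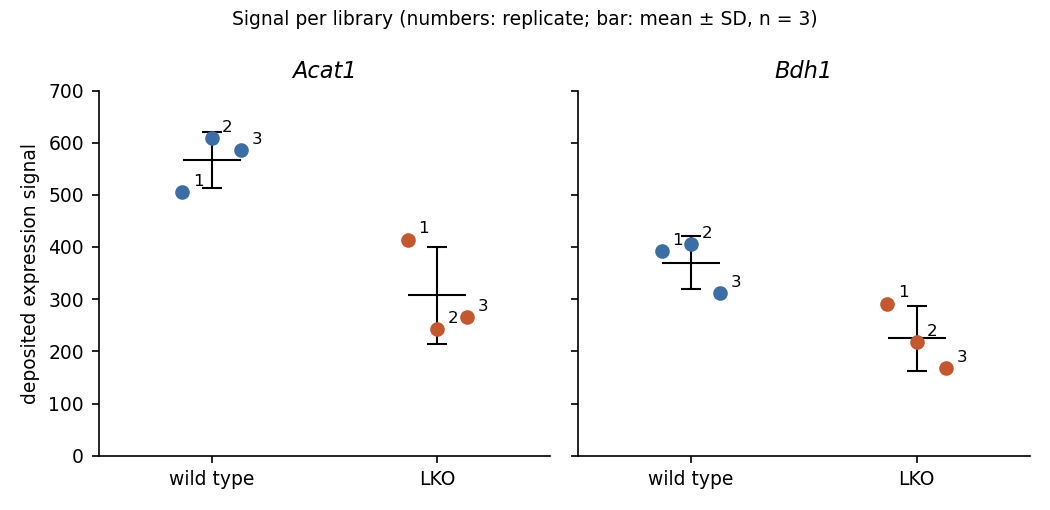
Expression signal (y axis, from 0) of Acat1 and Bdh1 in each of 6 liver libraries, by genotype (x axis), with the replicate number beside each point and bars for the mean ± SD (n = 3). The LKO points lie below the wild type points in both panels, and LKO replicate 1 is the highest LKO library for both genes.

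**Figure D2:**
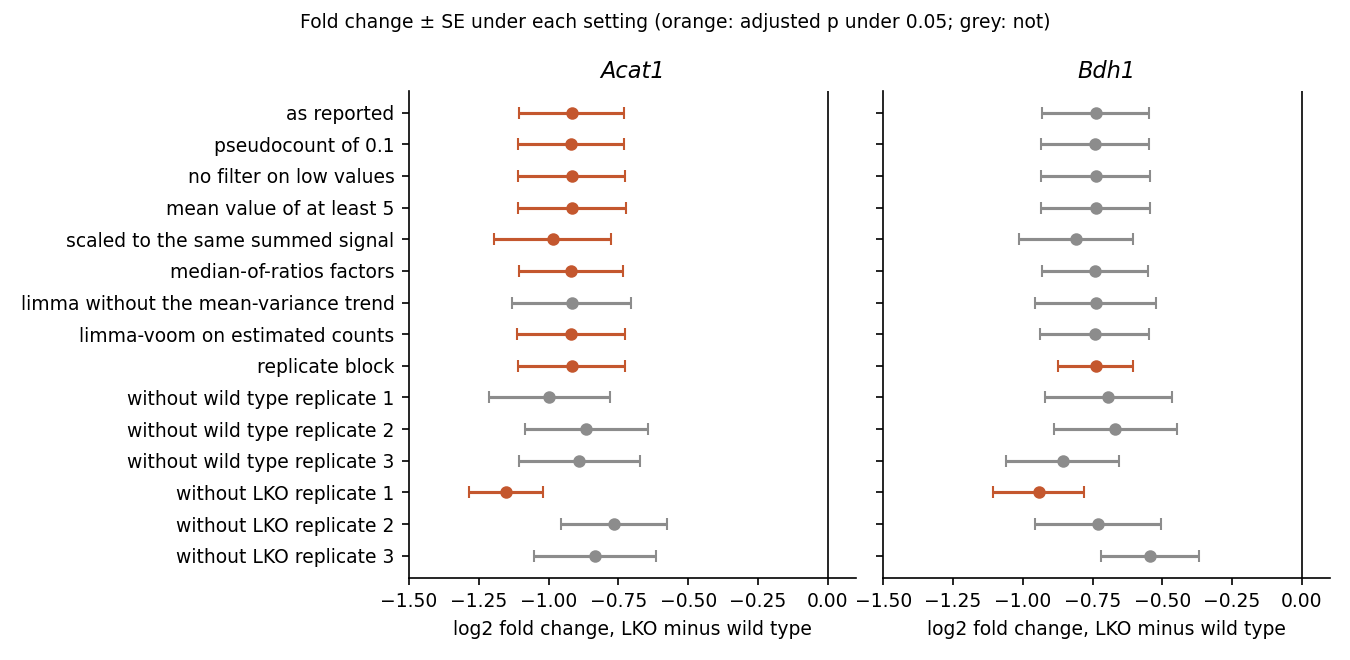
Log2 fold change of LKO minus wild type ± SE (x axis) for Acat1 and Bdh1 under each processing setting (y axis), with an adjusted p under 0.05 in orange and others in grey. All values lie between -1.15 and -0.54, and the colours show that the call of Acat1 is lost in 5 of the 6 fits with a library left out.

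Both transcripts are abundant, so counting error is small beside the spread between mice. Acat1 rested on 1627 to 5307 estimated reads per library and Bdh1 on 1458 to 3215. Acat1 ranked 342 and Bdh1 484 of all listed genes by mean signal. Within wild type livers the coefficient of variation was 9.51% for Acat1 and 13.7% for Bdh1, and within LKO livers it was 30.3% and 27.7%. Among 1394 genes with a mean signal of at least 100, the median was 9.23% in wild type and 10.2% in LKO, and the 90th percentile in LKO was 25.4%. Both genes therefore varied more between LKO livers than most genes of that level did.

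Whether the pair changed by different amounts was asked with the ratio of their signals within each library. The Acat1 signal was 1.29, 1.5 and 1.88 times the Bdh1 signal in wild type replicates 1, 2 and 3. It was 1.42, 1.12 and 1.59 times the Bdh1 signal in LKO replicates 1, 2 and 3, so the groups overlapped. On the log2 scale the ratio was 0.62 ± 0.27 in wild type and 0.44 ± 0.26 in LKO (SD, n = 3 each). The difference of LKO minus wild type was -0.18, with an exact permutation p of 0.5 (two-sided), where 3 against 3 libraries cannot go below 0.1. Single LKO and wild type libraries differed in this log2 ratio by between -0.75 and 0.29, a range that leaves room for unequal changes of either sign.

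Compared per length of merged exons, Acat1 had the higher mean signal of the pair in both groups. Its mean signal per kb was 151 in wild type and 81.8 in LKO, against 95.1 and 57.9 for Bdh1. In wild type replicates 1, 2 and 3 the Acat1 signal per kb was 135, 162 and 156, and that of Bdh1 was 101, 104 and 80.2, with no overlap between the genes. In LKO replicates 1, 2 and 3 it was 110, 64.4 and 70.7 for Acat1 and 74.9, 55.8 and 43.1 for Bdh1, so there the ranges of the genes overlapped. Per kb, 95.8% of tested genes had a lower mean signal than Acat1 and 93.97% a lower one than Bdh1.

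Acat1 belongs to the thiolases, which make or cleave the bond between an acyl group and acetyl-CoA. All 8 thiolase genes listed were tested, and 3 fell, including Acat1, while 0 rose, beside 1.69% and 1.82% of all tested genes. The median log2 fold change of the list was -0.46, against 0.00 over all tested genes. Acaa1b, a peroxisomal thiolase of fatty acid oxidation, had signals of 2787, 2952 and 3763 in wild type replicates 1, 2 and 3 and of 1405, 755 and 1061 in LKO replicates 1, 2 and 3. It fell, at -1.59 on the log2 scale (SE 0.22, adjusted p in limma 0.0066), and was called with each library left out in turn. The LKO values were all below the wild type values, as in 11.9% of all tested genes. LKO replicate 1 was again the nearest to wild type. Hadhb, the thiolase subunit of the mitochondrial trifunctional protein, had 296, 307 and 330 in wild type and 243, 207 and 193 in LKO, in the order of the replicates. It fell, at -0.54 on the log2 scale (SE 0.12, adjusted p in limma 0.0382). With a library left out, the call held only in the fit without LKO replicate 1, and the adjusted p in limma ran from 0.0807 to 0.149 in the other 5. Of the cytosolic thiolase genes, which supply sterol synthesis, Acat2 had a log2 fold change of -0.26 (SE 0.24) with overlapping groups. Acat3, its neighbour copy, had -0.39 (SE 0.20), also with overlap. Acaa2, the thiolase of mitochondrial beta-oxidation for medium chains, had -0.35 (SE 0.14), and Scp2 had -0.09 (SE 0.18). Acaa1a had -0.55 (SE 0.16, adjusted p in limma 0.107). Acat2 and Acat3, and Acaa1a and Acaa1b, are close copies of each other, so the split of reads within these pairs is uncertain.

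**Figure D3:**
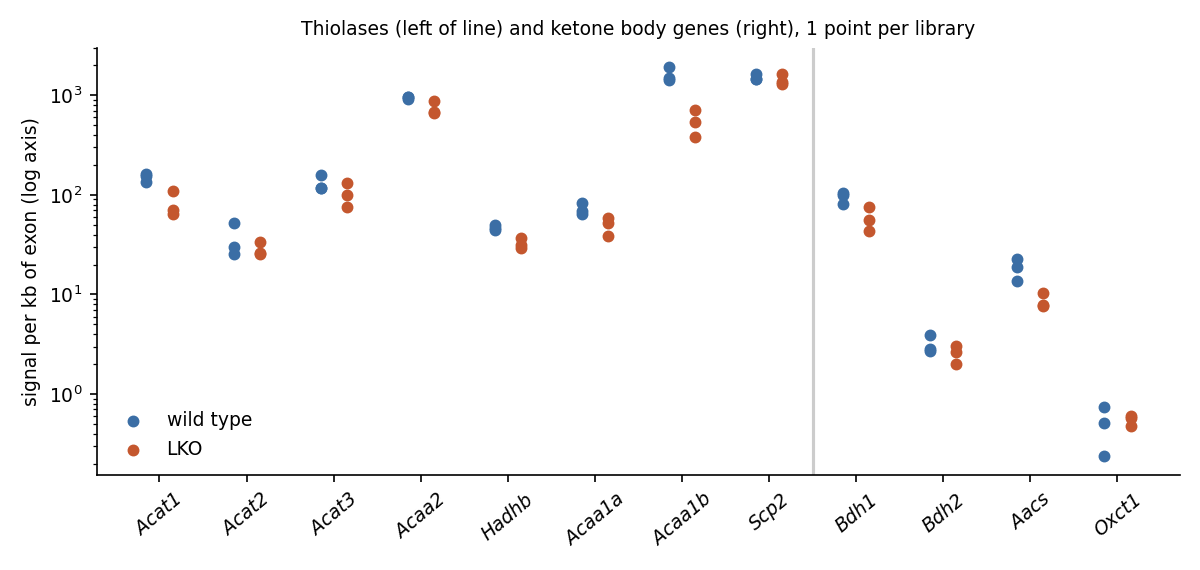
Expression signal per kb of merged exons (y axis, log scale) of the 8 thiolase genes and of 4 ketone body genes (x axis), with 1 point per library and wild type in blue beside LKO in orange. Acat1 lies between the cytosolic Acat2 and the beta-oxidation thiolase Acaa2, and Oxct1 lies lowest.

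Bdh1 belongs to the short-chain dehydrogenases and reductases, a family that uses NAD or NADP as a cofactor. Of 10 tested genes on the family list 4 fell and 0 rose, beside 1.69% and 1.82% of all tested genes. The median of the list was -0.72. Its most negative log2 fold change, -1.65 for Hsd17b6 (SE 0.39, adjusted p in limma 0.0508), was not called. Rdh16, a retinol dehydrogenase gene, fell, at -1.10 on the log2 scale (SE 0.18, adjusted p in limma 0.0101). Hsd17b11, a lipid droplet hydroxysteroid dehydrogenase gene, had -0.89 (SE 0.16, adjusted p 0.0171 in limma). Dhrs4, a peroxisomal carbonyl reductase gene, had -0.71 (SE 0.13), and Decr1, the mitochondrial dienoyl-CoA reductase gene, had -0.72 (SE 0.16). The call of Rdh16 was lost without wild type replicate 2 (adjusted p in limma 0.0519). Dhrs4 and Decr1 were called only in the fit without LKO replicate 1, with adjusted p in limma up to 0.0729 and 0.162 in the others. Hsd17b11 was called without wild type replicate 2 or LKO replicate 1, and its adjusted p in limma reached 0.0705.

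Beyond synthesis, genes that use ketone bodies in the liver gave 1 fall. Aacs encodes the cytosolic acetoacetyl-CoA synthetase, which activates acetoacetate for lipid synthesis. The Aacs signal was 72.4, 86.9 and 53.04 in wild type replicates 1, 2 and 3 and 29.5, 40.2 and 30.3 in LKO replicates 1, 2 and 3. The groups did not overlap, with LKO lower, as in 11.9% of all tested genes. LKO replicate 1 was the lowest library here, unlike for Acat1 and Bdh1. The Aacs change was -1.05 on the log2 scale (SE 0.19, adjusted p in limma 0.0174). That p rose to 0.06, 0.0698 and 0.0705 in the limma fits without wild type replicate 1, wild type replicate 2 and LKO replicate 3. Oxct1, the transferase that lets other organs burn ketone bodies and that hepatocytes are known to lack, was at 0.884 to 2.73 in all 6 libraries. The signal of 3 reads was 0.331 to 0.447, so Oxct1 rested on few reads. Its log2 fold change was 0.15 (SE 0.28), with overlapping groups. Bdh2, a cytosolic relative of Bdh1, had signals of 8.58 to 16.7 and a log2 fold change of -0.27 (SE 0.20), with overlap. Of the 3 tested genes on this list, 1 fell and 0 rose, beside 1.69% and 1.82% of all tested genes.

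Of 4 tested genes for transport of ketone bodies and other monocarboxylates, 1 fell and 0 rose, beside 1.69% and 1.82% of all tested genes. Slc16a7, which encodes the monocarboxylate transporter MCT2, had signals of 50.4, 79.0 and 58.3 in wild type replicates 1, 2 and 3 and of 29.5, 36.9 and 29.7 in LKO replicates 1, 2 and 3. No LKO value reached a wild type value, as in 11.9% of all tested genes. The change was -0.93 on the log2 scale (SE 0.17, adjusted p in limma 0.019). Leaving out wild type replicate 2 gave an adjusted p of 0.0595 in limma, and leaving out LKO replicate 3 gave 0.078. Slc16a1, which encodes MCT1, had 30.5, 39.5 and 73.5 in wild type and 29.9, 43.8 and 32.97 in LKO, with overlapping groups and a log2 fold change of -0.34 (SE 0.28). Slc16a6, an exporter of beta-hydroxybutyrate from liver in zebrafish, had signals of 2.56 to 8.40 over all libraries and a log2 fold change of 0.33 (SE 0.38), with overlap. Bsg, the chaperone subunit of MCT1, was at 304 to 346 in every library and had a log2 fold change of -0.03 (SE 0.10).

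The pathways that feed ACAT1 or share its substrates are given next, each by its own counts. Of all tested genes 1.69% fell and 1.82% rose. All 17 mitochondrial beta-oxidation genes, the source of acetyl-CoA, were tested, of which 7 fell and 0 rose, with a median of -0.50. Those that fell were Acadm (-0.99), Eci1 (-0.86), Hadh (-0.77), the carnitine carrier gene Slc25a20 (-0.74), Decr1, Hadhb and Acadl (-0.50). Acadm, Hadh and Slc25a20 were called with each library left out in turn. Acadl was called only without LKO replicate 1, and Eci1 without that library or wild type replicate 1, with adjusted p in limma up to 0.12 and 0.0851. In branched-chain amino acid breakdown, ACAT1 ends the isoleucine branch, but Acat1 itself was not placed on that list. There 0 of 22 other tested genes were called in limma or with limma-voom, and the median was -0.13. Of these 22 genes 21 were negative, down to a log2 fold change of -0.92, against a median of 0.00 over all tested genes. Of all 11168 tested genes, 175 fell and 165 rose with limma-voom, and 989 were lower and 1070 higher at an unadjusted p under 0.05 in limma. At this threshold 4 genes of the branched-chain list were lower and 0 higher. Aldh6a1, the highest of that list by mean signal without regard to length, had -0.36 (SE 0.12, adjusted p in limma 0.132). Bckdha, a subunit of the branched-chain ketoacid dehydrogenase, had -0.04 (SE 0.12). The sign of Bckdha turned, to 0.03 and 0.04, without wild type replicate 2 and LKO replicate 2. In the citrate cycle and citrate export, the main other fate of acetyl-CoA, 0 of 16 were called with either tool, 5 were higher and 1 lower at an unadjusted p under 0.05 in limma, and the median was 0.00. The ATP citrate lyase gene Acly had 1.2 (SE 0.35, adjusted p in limma 0.0998), 1.60 and an adjusted p of 0.0351 in limma without wild type replicate 2, and 0.80 and an adjusted p of 0.192 without wild type replicate 3. Sdha had -0.11 (SE 0.11). In the sterol pathway, which draws on cytosolic acetoacetyl-CoA, 0 of 7 were called with either tool, 1 was higher and 0 lower at an unadjusted p under 0.05, and the median was 0.32. Hmgcs1 had -0.67 (SE 0.31, adjusted p in limma 0.282) with overlapping groups, -1.07 and an adjusted p of 0.0328 in limma without wild type replicate 1, and -0.39 and an adjusted p of 0.542 without wild type replicate 3. Fdps had 0.90 (SE 0.40), also with overlap, and ranged from 0.54 without wild type replicate 1 to 1.38 without wild type replicate 2, with no call in either fit.

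**Figure D4:**
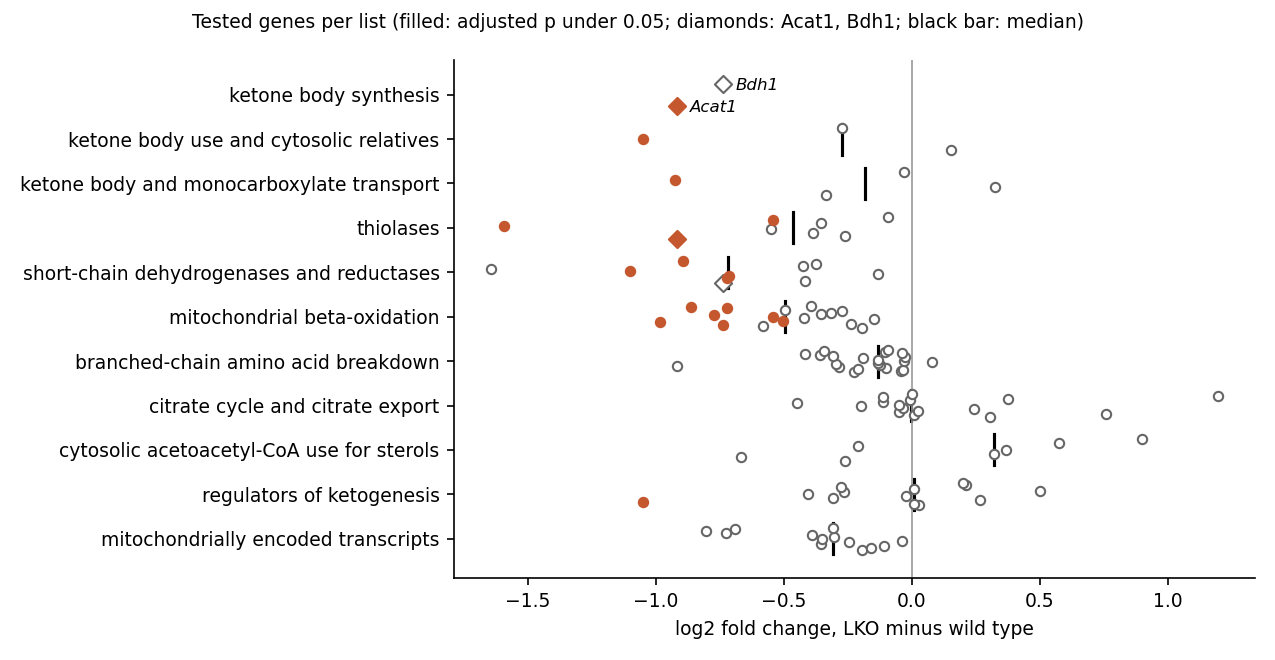
Log2 fold change of LKO minus wild type (x axis) of each tested gene in 11 lists (y axis), filled where the adjusted p was under 0.05, with diamonds for Acat1 and Bdh1 and a black bar for the median of each list other than ketone body synthesis. Filled points lie on the negative side, and the medians run from -0.72 for the short-chain dehydrogenases to 0.32 for the sterol pathway.

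Among 13 known regulators of ketogenesis 1 fell and 0 rose (0 and 0 with limma-voom, and 2 lower and 1 higher at an unadjusted p under 0.05), with a median of 0.01. Of all 11168 tested genes 1.69% fell and 1.82% rose in limma, and 175 fell and 165 rose with limma-voom. At an unadjusted p under 0.05 in limma, 989 were lower and 1070 higher. Ppara itself had signals of 105 to 123 in wild type and 103 to 132 in LKO (log2 fold change 0.03, SE 0.12). Fgf21, a fasting hormone gene and PPARα target, had 3.91, 5.3 and 5.97 in wild type replicates 1, 2 and 3 and 1.85, 1.64 and 2.23 in LKO. The Fgf21 change was -1.05 on the log2 scale (SE 0.22, adjusted p in limma 0.0322). That call held only without wild type replicate 1, and the adjusted p in limma ran up to 0.116 in the other fits with a library left out.

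Genes whose values most resembled those of Acat1 and Bdh1 were found by the root mean square difference between log2(signal + 1) values, each centred on its own mean over the 6 libraries. Over 7074 other genes with a mean signal of at least 10, the nearest to Acat1 was Ech1 (0.0915), which encodes a dienoyl-CoA isomerase of fatty acid oxidation. Ech1 also fell (log2 fold change -0.99, adjusted p in limma 0.0101), and was called with each library left out. Cmbl (0.0947), a carboxymethylenebutenolidase homologue, and Pllp (0.101), a plasmolipin gene, came next and were not called with all libraries. The nearest to Bdh1 were Fam13a (0.0599), the ubiquitin-conjugating enzyme gene Ube2l6 (0.0849) and Tmem184b (0.111), none of which was called with all libraries. Without LKO replicate 1, Cmbl, Pllp, Fam13a and Ube2l6 were called, with adjusted p in limma of 0.00333, 0.0108, 0.0415 and 0.019. All of these neighbours were chosen by their values in these 6 libraries, so their changes and calls follow in part from that choice. Acat1 and Bdh1 differed from each other by 0.234, which placed Bdh1 at rank 61 of likeness to Acat1 and Acat1 at rank 58 of likeness to Bdh1. The median gene differed from Acat1 by 0.545 and from Bdh1 by 0.482. With 6 libraries in 2 groups, this measure mostly records the step between the groups and the place of each library within its group.

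**Figure D5:**
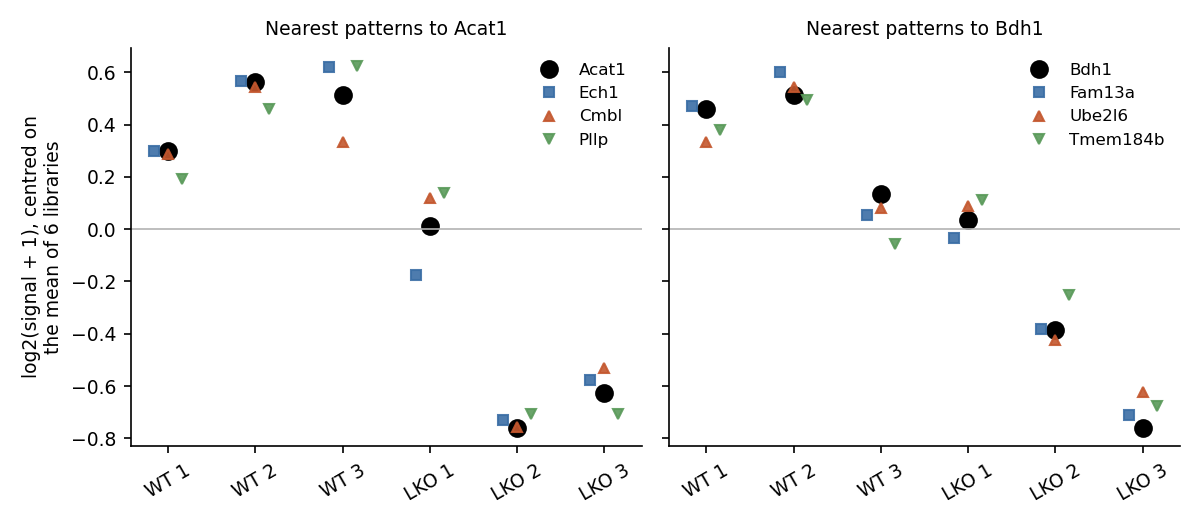
Log2(signal + 1) centred on the mean of 6 libraries (y axis) for Acat1 and Bdh1 (black) and the 3 genes nearest to each (coloured symbols), by library (x axis; WT, wild type). In both panels LKO replicate 1 lies near 0, LKO replicates 2 and 3 lie below it, and wild type replicate 3 is high for Acat1 and low among wild type for Bdh1.

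Estimated reads ran from 8549486 to 10764827 per library, and the 10 most abundant genes took 24.2% of the signal in LKO replicate 2, more than the 18.7% to 21.02% elsewhere. Hepatocyte markers (10 of 10 detected, 0 called in limma, 2 raised with limma-voom, and 3 higher and 1 lower at an unadjusted p under 0.05) had summed signals of 144342 to 178127 in wild type and 148947 to 213112 in LKO, led by Alb and Apoa1. Of all tested genes 1.82% were raised and 1.69% lowered in limma, and 165 genes were raised and 175 lowered with limma-voom. The list of Kupffer cell and macrophage markers had 5 of 11 genes raised in LKO, 0 lowered and a median log2 fold change of 0.83. The 11 together summed to 126 to 144 in wild type and to 194, 261 and 278 in LKO replicates 1, 2 and 3, so the LKO library with the highest Acat1 and Bdh1 had the lowest macrophage sum. Their part in the values of Acat1 and Bdh1 was not tested. The 13 mitochondrially encoded transcripts were all negative with a median of -0.31, 0 called with either tool and 3 lower at an unadjusted p under 0.05. They had summed signals of 46324 to 62583 in wild type and 40349 to 51658 in LKO, and mt-Co1 and mt-Cytb each had a log2 fold change of -0.31. Their part was not tested either. Of the remaining marker lists, sinusoidal endothelium, stellate cells, cholangiocytes, periportal and pericentral hepatocytes had 0 called genes in limma and with limma-voom. At an unadjusted p under 0.05 they had 4, 2, 1, 1 and 3 genes higher and 0 lower, in the same order. Of all 11168 tested genes 1070 were higher and 989 lower at that threshold. The medians of these marker lists were 0.35, 0.09, 0.36, 0.25 and 0.30. Acta1, the 1 of 5 heart and muscle markers that was analysed here, was listed at 0 in every library. T and B cell markers, and the 2 of 5 neutrophil and 1 of 4 adipocyte markers analysed here, each summed to at most 2.52.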

How the data were processed

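Liver polyadenylated RNA was sequenced from stranded libraries, per the labels' protocols. Per the submitters' processing notes, build mm10 was used with STAR 2.5.1 and RSEM 1.2.22, and bcl2fastq 2.17, Trimmomatic 0.36, Picard 1.84 and edgeR also appear, without roles. The authors deposited 1 expression signal per gene and mouse, with no unit in the file headers. Its values look like estimated read numbers, kept to 2 decimals, that were multiplied by a constant for each library. Between 81.7% and 82.9% of positive values were whole reads within 0.005. The main test therefore used log values, and limma-voom on the estimated counts was run as an alternative.

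Only genes with a mean signal of at least 1 were tested. The model was limma 3.58.1 (R 4.3.3) on log2(signal + 1), two-sided, with the variance trended on the mean and Benjamini-Hochberg adjustment over all tested genes at a threshold of 0.05. The fit was run on simulated data with larger fold changes than those of Acat1 and Bdh1, as a check of the code only. The members and lists were chosen with earlier results of these data known. Named genes are the called genes of each list, or its 2 with the highest mean signal where none was called, and the 3 nearest patterns. Other members of the short lists were named after their values were seen. Some enzymes of the pathway are not reported here. Gene positions and exon lengths come from GENCODE M21 (GRCm38, the assembly of mm10), where 13977 of the 14002 gene identifiers matched. The limma p-values set the difference between the groups against the spread between mice within a group. That spread is moderated with values from all tested genes. Read-based limits cover counting error only. Alternatives were other scalings, filters, pseudocounts, models and a replicate block, and each library left out.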

Additional observations from a re-analysis of the deposited data

How the results depend on the processing

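Acat1 and Bdh1 had a negative log2 fold change under all 14 alternatives run. The groups do not overlap, so leaving out a library could not turn the sign. The filters, the model without a trend and the block leave the estimate unchanged. With each library left out, Acat1 ranged from -1.15 to -0.77 and Bdh1 from -0.94 to -0.54. Without a mean-variance trend in limma the log2 fold change of Acat1 was -0.92 with an adjusted p of 0.0856, and 98 genes were raised and 97 lowered in place of 203 and 189. Leaving out a library gave 76 to 277 raised and 79 to 263 lowered genes. Same-numbered mice of the groups deviated together at r = 0.0465, 0.0324 and 0.0535 across genes, so the numbers were not taken as pairs; each library correlated best with its own number, as a hint from the data only. With a replicate block the log2 fold change of Bdh1 was -0.74 with an adjusted p of 0.0199 in limma, and 217 genes were raised and 199 lowered. The Acat1 minus Bdh1 difference ranged from -0.30 to -0.03 with a library left out. Bckdha ranged from -0.12 to 0.04 in those fits and changed sign without wild type replicate 2 (0.033) and LKO replicate 2 (0.0398). Of the 15 other named genes that fell, 5 kept the call with each library left out, 8 lost it without the trend, 2 with limma-voom, 2 with the block and 1 with no filter. With a minimum mean of 5, 1 lost it and 1, Fgf21, was not tested. Depth is not what limits Acat1 or Bdh1, which held at least 1627 and 1458 estimated reads in every library, while Oxct1, Slc16a6 and Fgf21 rest on few reads.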
